A study of Mus musculus with 6 samples.

Results

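Expression of 10 NRF2 and glutathione antioxidant genes was followed in sorted kidney cells: Nfe2l2, which encodes the transcription factor NRF2, and Gclc, Gclm, Srxn1, Txnrd1, Sod2, Gpx3, Gsta4, Nqo1 and Hmox1. They were taken by name from the array's gene annotation, and 11 probes matched them by RefSeq accession, of 55681 probes and 20887 named genes. NRF2 switches on genes for glutathione synthesis, thioredoxin recycling and detoxification. KEAP1 holds it in the cytoplasm and feeds it to a ubiquitin ligase, and oxidants and electrophiles release it. Freed NRF2 pairs with small MAF proteins and binds the antioxidant response element, where BACH1 competes with it. In collecting duct epithelium, which works in a salty and low-oxygen medulla, such enzymes limit damage by superoxide and hydrogen peroxide.

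RNA came from kidney cells of newborn C57BL/6 mice at postnatal day 1 after salt stress, sorted for GFP and tdTomato fluorescence as derivatives of the ureteric bud, the tissue that forms the collecting duct. The MUT group comprised 3 pools with the genotype Hoxb7cre+; R26RtdTomato; Bdkrb2f/f, in which Cre under Hoxb7 control deletes the gene of the bradykinin B2 receptor in this lineage. The WT group comprised 3 pools with the intact gene (Bdkrb2+/+), and its cells carried the same Cre and reporter and had the same salt stress. The number of mice in a pool and the source of GFP are not given in the sources used here. Each array carried 1 pool in Cy5 and RNA of WT pool 1 in Cy3, so each value is a log2 ratio to that 1 RNA and the array of WT pool 1 set it against itself. No dyes were swapped.

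The arrays had between 30721 and 31322 probes well above background in Cy5 for MUT pools and between 27030 and 28654 for WT pools. MUT pool 1 stood apart from the other MUT pools. Its log2 ratios differed from theirs with an SD of 0.45 over tested probes for MUT pool 2 and 0.44 for MUT pool 3, against 0.21 between MUT pools 2 and 3. The array of MUT pool 1 also had 403 spots left out, beside 196 to 246 on the other arrays, and the part of array quality in its values was not tested. On none of the arrays did the Bdkrb2 probe reach signal well above background, so it does not check the deletion. Markers of the labelled cells were measured but lower in MUT: 11 of 12 ureteric trunk and collecting duct genes were called lower, with summed quantile-normalized Cy5 signals of 42130 to 59770 in MUT and 149600 to 161800 in WT. All 9 principal cell genes tested and all 11 intercalated cell genes were called lower as well, and Scnn1g was not well above background. Over all genes tested, by the brightest probe of each, 18.8% were called lower and 14% higher. Markers of other cells moved too. Of 10 nephron progenitor genes 9 were called higher, with sums of 91420 to 137900 in MUT and 25530 to 35440 in WT. Of 11 tested stromal genes 9 were called higher, with sums of 109400 to 138700 in MUT and 20620 to 52520 in WT, and Tbx18 was not well above background. All 10 genes of the loop of Henle and distal tubule and 9 of 10 endothelial genes were called lower, with sums of 23210 to 29300 in MUT against 89170 to 158200 in WT, and of 31620 to 32910 in MUT against 57280 to 64050 in WT. The part of these cell types in the results that follow was not tested, and in such pooled RNA fewer cells of a type and less RNA per cell cannot be told apart.

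Of the 10 genes, Nfe2l2, Gclc, Srxn1, Sod2 and Gsta4 were lower in MUT after loess normalization, by 1.58-fold to 2.79-fold, and none was higher. These are 5 of 11 probes called at an adjusted p under 0.05 (limma, Benjamini-Hochberg over 29002 tested probes), beside 26.1% of all tested probes called, 14.6% lower and 11.6% higher. Taken by gene, with the brightest probe of each, 5 of 10 were called, all lower, beside 32.7% of 14594 genes called and 18.8% called lower. For 7 of the 10 every MUT pool lay outside the WT range, beside 52.5% of all genes. The median difference over the 10 was -0.67 log2, beside -0.02 over all genes tested. The 10 genes were chosen with earlier results of these data known, so these shares do not test them as a set. All 11 probes were well above background on all 6 arrays in both dyes.

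The values depend on how the arrays are scaled. The 10 control probes for E1A spike-in RNA give another zero, and setting each array to them after loess moved the median of all probes up by 0.95 log2 in MUT. Under that scaling 0 of the 11 probes were called lower, beside 0.731% of all probes, and both Hmox1 probes were called higher, beside 65.3% of all probes. Without loess the same scaling gave 0 lower, beside 0.914%, and again both Hmox1 probes higher, beside 57.9%. Nfe2l2, Gclc, Srxn1 and Sod2 then stayed below WT without a call, and Gsta4 was above it. Of the marker lists, 5 had median differences of -0.63 for ureteric trunk and collecting duct, -1.09 for principal cells, -1.34 for intercalated cells, 2.86 for nephron progenitors and 2.81 for stroma, of the same sign as after loess. Medians for loop of Henle and distal tubule (-1.25), erythroid cells (-1.52) and leukocytes (1.94) kept their sign as well. The median of endothelial genes was -1.03 after loess and -0.08 with the spike-in scaling, and that of proximal tubule genes turned, at -0.41 after loess and 0.54 with the spike-in scaling. The spike-in level itself spread widely within groups: it lay at -0.70, -0.55 and -0.18 log2 on the MUT arrays and at 0.01, 0.39 and 1.01 log2 on the WT arrays. This scaling after loess adds the same 0.95 log2 to the difference of every probe. Whether a list median kept its sign therefore follows from its value after loess and is no separate check. Differences given below are changes after loess, relative to the bulk of probes on an array, and the spike-in value stands beside those of the 10 genes and of the list genes called lower.

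**Figure D1:**
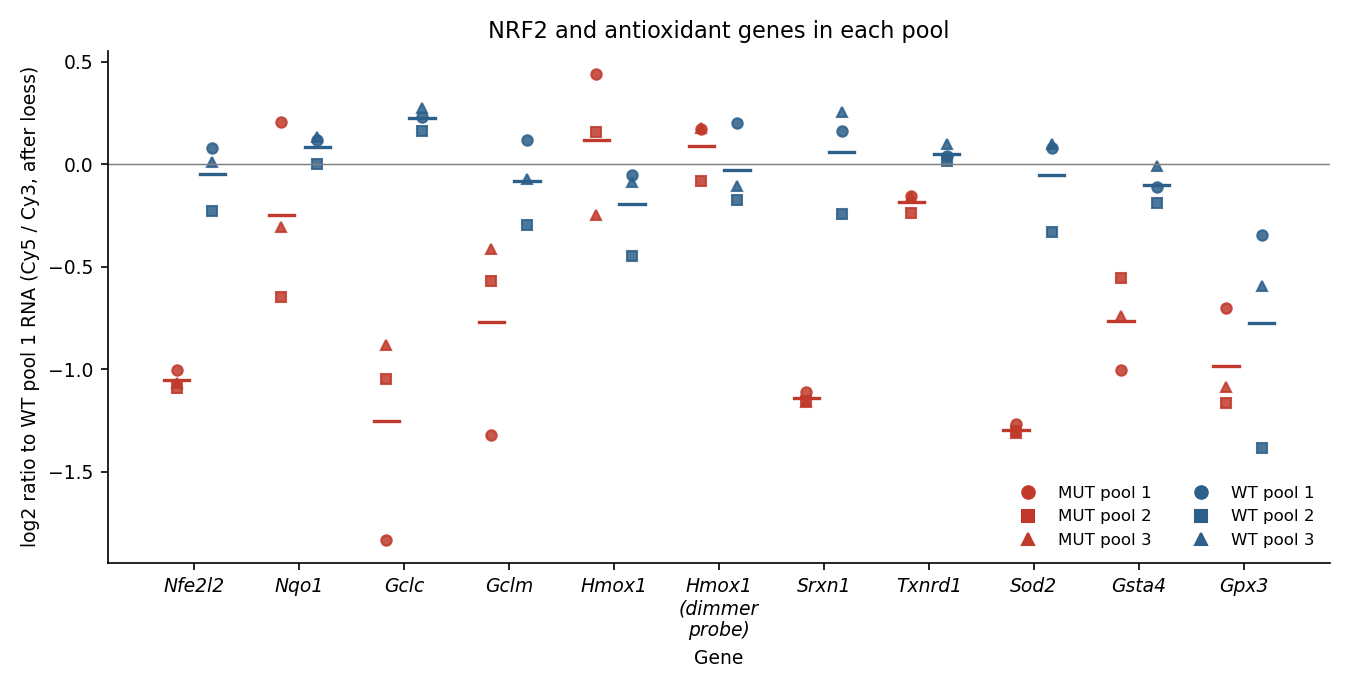
Log2 ratio of each pool to WT pool 1 RNA (vertical axis, after loess) for the 11 probes of the 10 genes, MUT pools in red to the left and WT pools in blue to the right, with bars at group means. Nfe2l2, Srxn1 and Sod2 form tight MUT groups below -1 log2, while Gclc, Gclm and Nqo1 spread by over 0.8 log2 among MUT pools. With the spike-in scaling the MUT means would move up relative to the WT means by 0.95 log2.

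Promoter sequences are shown for genes called lower whose MUT pools moved together (Nfe2l2, Srxn1, Sod2) and for Gclm, whose pools spread. The MUT pools of Txnrd1, which was not called, also lay within 0.08 log2, and its windows are not printed. Each is the 250 bases before the annotated start from RefSeq, build GRCm38.p6, 5′ to 3′ on the gene's strand. Capitals mark the core of the antioxidant response element, TGACNNNGC, or the AP-1 site, TGANTCA, on either strand.
Nfe2l2, chr2:75704664-75704913, minus strand: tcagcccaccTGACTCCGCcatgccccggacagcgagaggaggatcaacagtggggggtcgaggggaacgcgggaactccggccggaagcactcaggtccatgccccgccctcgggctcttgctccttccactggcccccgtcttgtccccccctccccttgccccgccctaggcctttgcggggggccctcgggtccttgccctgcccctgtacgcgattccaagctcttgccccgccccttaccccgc
Srxn1, chr2:152105274-152105523, plus strand: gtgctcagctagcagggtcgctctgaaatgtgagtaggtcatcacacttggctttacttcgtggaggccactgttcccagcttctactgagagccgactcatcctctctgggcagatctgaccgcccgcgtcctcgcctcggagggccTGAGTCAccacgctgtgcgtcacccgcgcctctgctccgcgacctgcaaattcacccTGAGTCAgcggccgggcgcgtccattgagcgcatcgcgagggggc
Sod2, chr17:13007589-13007838, plus strand: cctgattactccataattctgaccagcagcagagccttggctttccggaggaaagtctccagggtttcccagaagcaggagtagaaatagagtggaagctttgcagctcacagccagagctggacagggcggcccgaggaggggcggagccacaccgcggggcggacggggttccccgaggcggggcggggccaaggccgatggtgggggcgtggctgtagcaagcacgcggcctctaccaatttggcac
Gclm, chr3:122245307-122245556, plus strand: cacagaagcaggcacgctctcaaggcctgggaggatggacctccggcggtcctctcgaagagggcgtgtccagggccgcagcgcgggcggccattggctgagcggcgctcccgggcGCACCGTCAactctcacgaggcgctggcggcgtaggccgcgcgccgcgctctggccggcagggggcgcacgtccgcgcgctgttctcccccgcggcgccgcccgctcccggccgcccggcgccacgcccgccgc
Of the 10 genes, 7 had windows in the RefSeq table, and 4 of these (Nfe2l2, Gclm, Srxn1 and Txnrd1) held the response element core within 250 bases before to 50 after a start. The core was present in 12.4% of all 32851 windows of that length, a share of windows rather than of genes. The 7 genes had 9 windows, 3 of them of Txnrd1, where only window 2 held the core. In Nfe2l2 it lay 240 bases before the start as TGACTCCGC, and in Gclm 134 bases before as TGACGGTGC on the opposite strand. Txnrd1 held TGACAAAGC on the opposite strand, 92 bases before the start of its window 2. In Srxn1 the core TGACCTAGC lay on the opposite strand after the start, outside the printed bases, and 2 AP-1 sites lay 102 and 45 bases before it. AP-1 sites were in 7.81% of all windows and in no other window of the 10 genes. Sod2, Nqo1 and Gpx3 held neither string in this window. As these strings are defined here, the core and the AP-1 site did not overlap in any of these windows. Other forms of the response element were not searched for. In Srxn1 the AP-1 site 45 bases before the start, with the bases after it, has the form of the core but with G in place of C. It was therefore not counted as a core, and whether NRF2 binds there was not tested.

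Nfe2l2 (probe A_51_P411271, chromosome 2) encodes NRF2. Its log2 ratios were -1.01, -1.09 and -1.07 in MUT pools 1, 2 and 3, against 0.08, -0.23 and 0.01 in WT pools 1, 2 and 3. The MUT pools lay within 0.08 log2 of each other and the nearest WT pool was 0.78 above them. The mean was -1.06 ± 0.04 in MUT and -0.05 ± 0.16 in WT (SD, n = 3 each). Nfe2l2 was thus 2.01-fold lower in MUT (-1.01 ± 0.11 SE, limma adjusted p = 0.000842), and the difference was -0.06 with the spike-in scaling (adjusted p = 0.884). Scanner signals of the same spots read alike on each array. With MUT RNA in Cy5 the processed signal was 3843, 3828 and 3466, beside 7547, 7898 and 7215 for WT pool 1 RNA in Cy3. With WT RNA in Cy5 it was 4087, 3564 and 3763, beside 3950, 4152 and 3822 in Cy3. The scanner software balances both dyes on each array, so these signals compare only within an array. Like the loess ratios they are relative to the bulk of probes, and they do not bear on the spike-in value. Over the 6 arrays the Cy3 signal of Nfe2l2, always the same RNA, had an SD of 0.03 log2 after quantile normalization, beside a median of 0.09 over all tested probes.

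The genes whose pattern over the 6 arrays was closest to that of Nfe2l2, of 14593 others, were Pdk1, Atp6v1d and Tshr, with root mean square differences of 0.06, 0.06 and 0.07 log2. Among the other 9 genes the closest was Srxn1 at 0.12 log2, then Sod2 at 0.18. Srxn1 and Sod2 differed by 0.13.

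Partners of NRF2 did not move as one. Of 15 regulators and partners tested, 2 were called lower (13.3%), 3 higher (20%) and 10 neither, beside 18.8% and 14% of all genes. Their median difference was -0.21 log2 after loess and 0.74 with the spike-in scaling. Nfe2l1, a related factor that controls proteasome genes, was lower by -0.88 ± 0.20 (adjusted p = 0.0159), and Maff, a small MAF partner, by -0.57 ± 0.17 (0.046). They were 0.06 and 0.38 above WT with the spike-in scaling, and neither was called without WT pool 1 or without WT pool 3, nor was Maff without MUT pool 2 or 3. Bach1, the repressor at NRF2 sites, had log2 ratios of 0.51, 0.77 and 0.85 in MUT against 0.21, 0.14 and 0.05 in WT. Its pools did not overlap, and it was higher by 0.57 ± 0.12 log2 (0.0107). Its relative Bach2 was higher by 1.06 ± 0.23 (0.0131), and Btrc, a ubiquitin ligase subunit that also marks NRF2 for breakdown, by 0.55 ± 0.11 (0.0112). None of these 3 was called without WT pool 3, nor Bach2 without WT pool 1. Keap1, the NRF2 inhibitor, was at -1.003, 0.10 and -0.10 log2 in MUT against 0.12, 0.09 and 0.05 in WT. MUT pool 1 alone set it apart, and the difference of -0.42 ± 0.26 did not pass the test (adjusted p = 0.267).

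Glutathione synthesis starts with glutamate-cysteine ligase, which joins the catalytic subunit GCLC to the modifier GCLM. Gclc (probe A_51_P365019, chromosome 9) had log2 ratios of -1.83, -1.05 and -0.88 in MUT against 0.23, 0.16 and 0.28 in WT. All MUT pools lay at least 1.05 log2 below every WT pool, and MUT pool 1 was the lowest. Gclc was 2.79-fold lower in MUT (-1.48 ± 0.23, adjusted p = 0.00313), a difference of -0.53 with the spike-in scaling. With the slide row as a block its difference was -1.49 and not called (adjusted p = 0.054). Gclm (probe A_51_P320089, chromosome 3) had -1.32, -0.57 and -0.41 log2 in MUT against 0.12, -0.30 and -0.07 in WT. The groups stood apart by 0.12 log2, with MUT pool 1 lowest again. The difference of -0.68 ± 0.24 missed the threshold (adjusted p = 0.0683) and was 0.26 with the spike-in scaling. Without MUT pool 1 it was -0.41 and called (0.0425), and without MUT pool 3 it was -0.86 and called (0.0426).

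Set against each other within an array, where any constant shift of that array cancels, the subunits gave a narrow MUT range. Gclc minus Gclm was -0.51, -0.48 and -0.47 log2 in MUT against 0.11, 0.46 and 0.35 in WT. The catalytic subunit was thus the lower of the pair relative to WT in every MUT pool, and the groups did not overlap. Their difference was -0.79 (exact two-sided permutation p = 0.1, the smallest that 3 against 3 pools allow; adjusted over 6 pairs 0.15). Gclm is dim, and its own difference moved to -0.81 with a background offset of 10 and to -0.87 with processed signals. That of Gclc was -1.49 and -1.48 there, so the gap between the subunits was smaller in both settings. The 6 pairs were chosen after the values of the genes were known.

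**Figure D2:**
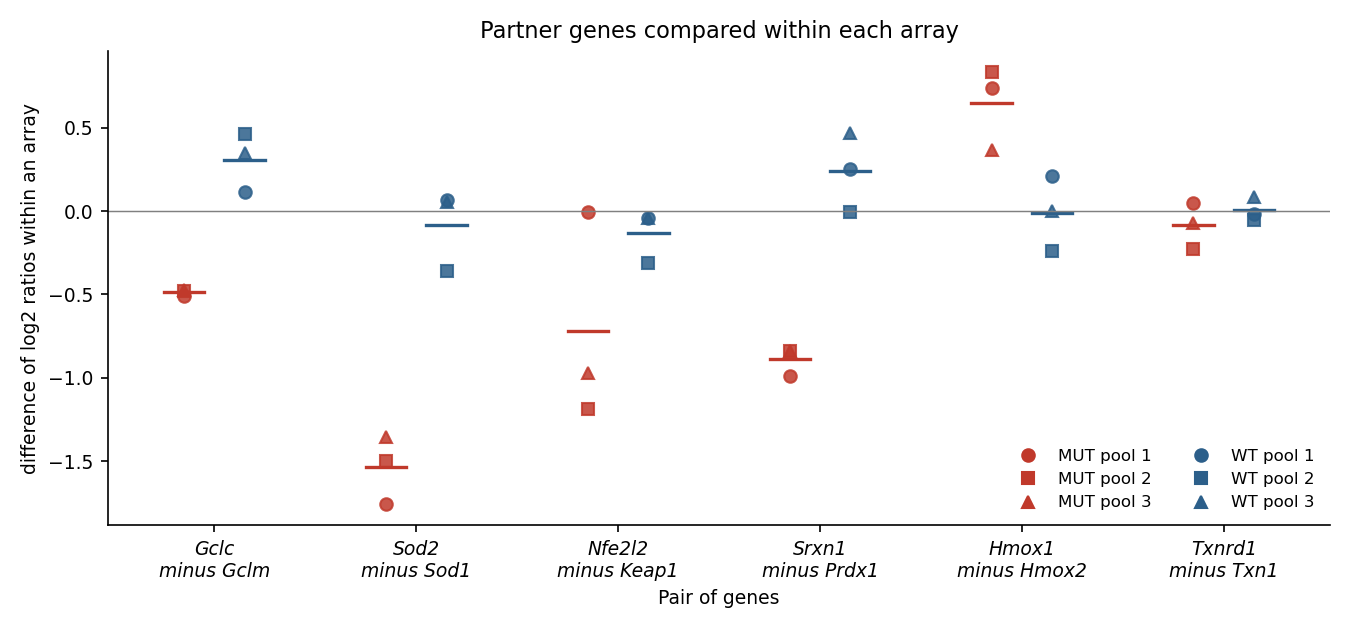
Difference of log2 ratios between partner genes within an array (vertical axis), MUT pools in red to the left and WT pools in blue to the right, bars at group means, for 6 pairs. A constant shift of an array, as in the spike-in scaling, leaves these values as they are. Gclc minus Gclm, Sod2 minus Sod1 and Srxn1 minus Prdx1 lie lower in all MUT pools than in any WT pool, and Hmox1 minus Hmox2 lies higher.

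Gene lists of the pathway, given here and below, hold the genes described above them too. Of 16 tested genes of glutathione synthesis, uptake and turnover, 7 (43.8%) were called lower and 0 higher, beside 18.8% and 14% of all genes. The list median was -0.50 log2 after loess and 0.45 with the spike-in scaling. Chac2, which degrades glutathione in the cytosol, was lower by -1.11 ± 0.15 (adjusted p = 0.00199). Ggt1, which splits extracellular glutathione at the cell surface, was lower by -1.09 ± 0.17 (0.00296). Their differences with the spike-in scaling were -0.16 and -0.14. Oplah, which returns oxoproline to glutamate, was lower by -0.84 ± 0.12 (0.00193), and Anpep, an aminopeptidase that splits the cysteinylglycine left by Ggt1, by -0.74 ± 0.19 (0.0233). Anpep was not called when any of the WT pools was left out, and with the spike-in scaling Oplah was 0.11 and Anpep 0.21 above WT. Gss, glutathione synthetase, differed by -0.33 ± 0.14 (0.114). Gsr, which reduces oxidized glutathione, differed by -0.13 ± 0.24 (0.719) and, at its other probe, by -0.19 (0.559). The cystine transporter gene Slc7a11 did not reach that level on any array.

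Sulfiredoxin, the product of Srxn1, repairs peroxiredoxins that peroxide has over-oxidized. Srxn1 (probe A_55_P2033120, chromosome 2) had log2 ratios of -1.11, -1.16 and -1.16 in MUT against 0.16, -0.24 and 0.26 in WT. The MUT pools lay within 0.05 log2 of each other and the WT pools within 0.50, with 0.86 between the groups. Srxn1 was 2.30-fold lower in MUT (-1.20 ± 0.14, adjusted p = 0.00107), a difference of -0.25 with the spike-in scaling. Prdx1, a peroxiredoxin that sulfiredoxin repairs and that was named for this role after its value was seen, was not called (-0.07 ± 0.11, 0.649). Within arrays Srxn1 minus Prdx1 was -0.99, -0.84 and -0.84 in MUT against 0.26, -0.01 and 0.47 in WT, without overlap (difference -1.13, exact permutation p = 0.1, adjusted 0.15).

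Thioredoxin reductase 1 keeps cytosolic thioredoxin reduced with NADPH. Txnrd1 (probe A_51_P320614, chromosome 10) had -0.16, -0.24 and -0.16 log2 in MUT against 0.04, 0.01 and 0.10 in WT. The pools did not overlap but lay close, and the difference of -0.24 ± 0.09 did not pass the test (adjusted p = 0.0998). It was 0.09 with median centring and 0.71 with the spike-in scaling, and in none of the 20 alternative settings was it called. Its substrate gene Txn1 differed by -0.15 ± 0.10 (0.308), and Txnrd1 minus Txn1 within arrays overlapped between the groups (difference -0.09, exact permutation p = 0.4, adjusted 0.4).

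Of 23 tested genes of the thioredoxin, peroxiredoxin and glutaredoxin system, 5 (21.7%) were called lower and 2 (8.7%) higher. Over all genes these shares were 18.8% and 14%. The list median was -0.14 log2 after loess and 0.81 with the spike-in scaling. Prdx5, a mitochondrial and peroxisomal peroxiredoxin, was lower by -1.67 ± 0.18 (adjusted p = 0.000766; -0.72 with the spike-in scaling). Glrx5, which serves mitochondrial iron-sulfur assembly, was lower by -0.41 ± 0.11 (0.0304), was 0.53 above WT with the spike-in scaling, and was not called when MUT pool 3 or any of the WT pools was left out. Prdx4, a peroxiredoxin of the endoplasmic reticulum, was higher by 0.47 ± 0.10 (0.0111) and Sesn1, a stress-induced sestrin, by 0.65 ± 0.13 (0.0101). Neither was called without WT pool 3.

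Sod2, the manganese superoxide dismutase of mitochondria, turns superoxide into hydrogen peroxide. Its log2 ratios (probe A_51_P172573, chromosome 17) were -1.27, -1.30 and -1.31 in MUT against 0.08, -0.33 and 0.10 in WT. In these ratios this was the tightest MUT group of the 10 genes, with a range of 0.05 log2 beside 0.43 among WT pools. Sod2 was 2.37-fold lower in MUT (-1.24 ± 0.13, adjusted p = 0.000754), a difference of -0.29 with the spike-in scaling. The processed scanner signals of Sod2 were 12480, 15360 and 13410 for MUT RNA, beside 28980, 36680 and 31440 for WT pool 1 RNA on the same arrays. For WT RNA they were 17760, 14430 and 17440, beside 16150, 17830 and 15850 in Cy3. Its Cy3 signal had an SD of 0.17 log2 over the arrays, beside a median of 0.09 over all tested probes. The quantile-normalized Cy5 signal of Sod2 without Cy3 was less tight, at 13.58, 14.08 and 14.07 log2 in MUT pools 1, 2 and 3.

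Sod1, the cytosolic copper-zinc enzyme, had log2 ratios of 0.49, 0.20 and 0.04 in MUT against 0.01, 0.03 and 0.05 in WT. It was not called (0.21 ± 0.13, adjusted p = 0.266). Sod2 minus Sod1 within arrays was -1.76, -1.50 and -1.35 in MUT against 0.07, -0.36 and 0.05 in WT. The mitochondrial gene was the lower of the pair in every MUT pool relative to every WT pool (difference -1.45, exact permutation p = 0.1, adjusted 0.15).

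Gpx3 encodes the secreted glutathione peroxidase that kidney tubules release into plasma. Its log2 ratios (probe A_51_P292008, chromosome 11) were -0.70, -1.16 and -1.09 in MUT against -0.35, -1.39 and -0.60 in WT. WT pool 2 was the lowest of all 6 and the groups overlapped. The difference of -0.21 ± 0.26 was not called (adjusted p = 0.592). It was 0.74 with the spike-in scaling and 0.13 with median centring. Markers of the proximal tubule, which makes Gpx3, had a pool median of -0.58, -0.71 and -1.03 log2 in MUT and 0.10, -1.03 and -0.19 in WT, with 3 of 12 genes called lower and 0 higher after loess. WT pool 2 was the lowest WT pool for this list as well, and its part in the Gpx3 values was not tested.

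Of 12 tested glutathione peroxidases, catalase and superoxide dismutases, 5 (41.7%) were called lower and 2 (16.7%) higher, beside 18.8% and 14% of all genes. The list median was -0.37 log2 after loess and 0.57 with the spike-in scaling. Gpx6, a glutathione peroxidase best known from olfactory tissue, was lower by -1.73 ± 0.17 (adjusted p = 0.000583; -0.78 with the spike-in scaling). Ccs, the copper chaperone of Sod1, was lower by -0.78 ± 0.13 (0.00437), Gpx4, which protects membrane lipids, by -0.59 ± 0.13 (0.0115), and Gpx1, the cytosolic enzyme, by -0.54 ± 0.15 (0.0333). These were 0.17, 0.35 and 0.41 above WT with the spike-in scaling. Gpx4 and Gpx1 were not called without WT pool 1 or without WT pool 3, nor was Gpx1 without MUT pool 2 or 3. Catalase, Cat, was at 1.73, 0.23 and 0.35 log2 in MUT against 0.13, -0.02 and 0.06 in WT. MUT pool 1 was far above the rest, and the difference of 0.72 ± 0.36 was not called (0.179), nor was that of its other probe (0.53, 0.189).

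Gsta4 encodes a glutathione transferase that conjugates 4-hydroxynonenal, a product of lipid peroxidation. Its log2 ratios (probe A_51_P112223, chromosome 9) were -1.002, -0.55 and -0.74 in MUT against -0.11, -0.19 and -0.01 in WT. All MUT pools were below all WT pools, by at least 0.37 log2, and MUT pool 1 was the lowest. Gsta4 was 1.58-fold lower in MUT (-0.66 ± 0.13, adjusted p = 0.00947), and 0.29 above WT with the spike-in scaling. It is the only one of the 10 genes whose probe was printed 10 times on the array. Between 5 and 10 of these spots were used per array, and the SD among spots of an array, which measures technical spread only, was 0.04 to 0.13 log2. Gsta4 was not called with median centring (-0.39), with the slide row as a block (-0.66, adjusted p = 0.113) or without WT pool 3 (-0.62, 0.0514).

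Of 23 tested glutathione S-transferases, Gsta4 among them, 13 (56.5%) were called lower and 2 (8.7%) higher, beside 18.8% and 14% of all genes. The list median was -0.44 log2 after loess and 0.51 with the spike-in scaling. Under the spike-in scaling 4 of the 13 lay below WT, and of the 23 genes 2 were called lower and 5 higher. Gstt1, a theta class enzyme, had log2 ratios of -2.40, -2.20 and -1.61 in MUT against 0.07, -0.34 and 0.35 in WT. It was 4.28-fold lower in MUT (-2.10 ± 0.24, adjusted p = 0.000932; -1.15 with the spike-in scaling). The microsomal Mgst3 was lower by -1.75 ± 0.17 (0.000572), Gstt3 by -1.58 ± 0.12 (0.000382) and Gsta3, an alpha class enzyme, by -1.35 ± 0.13 (0.00055). These stayed below WT with the spike-in scaling, at -0.81, -0.63 and -0.40. Members of 1 class are close in sequence, so their probes may share target RNA.

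Nqo1 encodes a quinone reductase and is a standard NRF2 target. Its log2 ratios (probe A_51_P424338, chromosome 8) were 0.21, -0.65 and -0.31 in MUT against 0.12, 0.00 and 0.13 in WT. MUT pool 1 was the highest of all 6 pools and the other MUT pools the lowest, so the groups overlapped. The difference of -0.33 ± 0.20 was not called (adjusted p = 0.260) and was 0.62 with the spike-in scaling. From the scanner's processed signals it was -0.52, also not called (0.293). Without MUT pool 1 it was -0.56 and called (0.00724), and with array weights -0.52 and called (0.0175).

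Of 19 tested detoxifying NRF2 targets, 5 (26.3%) were called lower and 2 (10.5%) higher, beside 18.8% and 14% of all genes. The list median was -0.25 log2 after loess and 0.70 with the spike-in scaling. Ephx1, microsomal epoxide hydrolase, was lower by -0.92 ± 0.12 (adjusted p = 0.00172), Nqo2, a second quinone reductase, by -0.66 ± 0.10 (0.00266) and Akr1b10, an aldo-keto reductase, by -0.64 ± 0.11 (0.00422). Osgin1, an oxidative stress-induced growth inhibitor, was lower by -0.76 ± 0.20 (0.0279), and was not called when MUT pool 2 or 3 or WT pool 1 or 3 was left out. With the spike-in scaling these 4 lay at 0.03, 0.29, 0.31 and 0.19 above WT.

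Hmox1 encodes inducible heme oxygenase, which opens heme into biliverdin, iron and carbon monoxide. Its brighter probe (A_51_P263965, chromosome 8) gave 0.44, 0.16 and -0.25 log2 in MUT against -0.05, -0.45 and -0.08 in WT. The groups overlapped through MUT pool 3, and the difference of 0.31 ± 0.19 was not called (adjusted p = 0.267). The dimmer probe (A_55_P2029687) gave 0.17, -0.08 and 0.18 in MUT against 0.20, -0.17 and -0.11 in WT, with overlap again (0.12 ± 0.14, 0.562). Hmox1 was the only one of the 10 genes with a mean above WT after loess, and with the spike-in scaling it was called higher by 1.26 (0.00467). Within arrays, Hmox1 minus Hmox2, the constitutive enzyme, was 0.74, 0.83 and 0.37 in MUT against 0.21, -0.24 and 0.00 in WT. All MUT pools were above all WT pools (difference 0.66, exact permutation p = 0.1, adjusted 0.15). This pair takes the brighter Hmox1 probe only. Hmox2 itself differed by -0.34 ± 0.13 and was not called (limma adjusted p = 0.0859), so part of the pair difference lies in Hmox2.

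Of 12 tested heme breakdown and iron storage genes, 2 (16.7%) were called lower and 1 (8.33%) higher, beside 18.8% and 14% of all genes. The list median was -0.25 log2 after loess and 0.70 with the spike-in scaling. The transferrin receptor gene Tfrc was lower by -0.64 ± 0.11 (adjusted p = 0.00518) and the ferritin light chain gene Ftl1 by -0.57 ± 0.15 (0.0277). Both were above WT with the spike-in scaling, at 0.31 and 0.38. Slc40a1, the iron exporter ferroportin, was higher by 0.54 ± 0.12 (0.0138). Ftl1 was not called when MUT pool 2 or 3 or WT pool 1 or 3 was left out, nor Slc40a1 without WT pool 3. All 7 tested erythroid genes were called lower, with summed Cy5 signals of 61190 to 84720 in MUT and 149800 to 359600 in WT. The part of blood RNA in the heme and iron genes was not tested.

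NADPH feeds both the glutathione and the thioredoxin cycles. Of 11 tested genes of its supply, 4 (36.4%) were called lower and 1 (9.09%) higher, beside 18.8% and 14% of all genes. The list median was -0.26 log2 after loess and 0.69 with the spike-in scaling. Mitochondrial Idh2 was lower by -0.95 ± 0.13 (adjusted p = 0.00172), Taldo1 of the pentose phosphate pathway by -0.84 ± 0.10 (0.00116) and the mitochondrial kinase gene Nadk2 by -0.51 ± 0.14 (0.0288). Their differences with the spike-in scaling were -0.00, 0.11 and 0.43, and Nadk2 was not called when MUT pool 2 or 3 or WT pool 1 or 3 was left out. Rpia, of the pentose phosphate pathway, was higher by 0.59 ± 0.11 (0.00756). G6pdx, whose enzyme opens this pathway, differed by -0.01 ± 0.11 (0.940).

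Among 10 tested genes of oxidant-producing enzymes, 1 (10%) was called lower and 2 (20%) higher, beside 18.8% and 14% of all genes. The list median was 0.18 log2 after loess and 1.13 with the spike-in scaling. Rac2 and Ncf4, parts of the phagocyte NADPH oxidase, were higher by 0.72 ± 0.17 (adjusted p = 0.0173) and 0.77 ± 0.19 (0.0236). Neither was called when MUT pool 2 or WT pool 2 or 3 was left out. Beside them, 9 of 11 leukocyte genes were called higher and 1 lower, with summed Cy5 signals of 14300 to 22000 in MUT and 6782 to 10830 in WT, and the part of leukocytes was not tested. Cyba, the membrane partner of NADPH oxidases, was lower by -0.48 ± 0.14 (0.0355), was 0.47 above WT with the spike-in scaling, and was not called when MUT pool 2 or 3 or WT pool 1 or 3 was left out. Nox4, the oxidase of kidney tubules, differed by -0.40 ± 0.19 (0.170), and by -0.11 at its other probe.

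**Figure D3:**
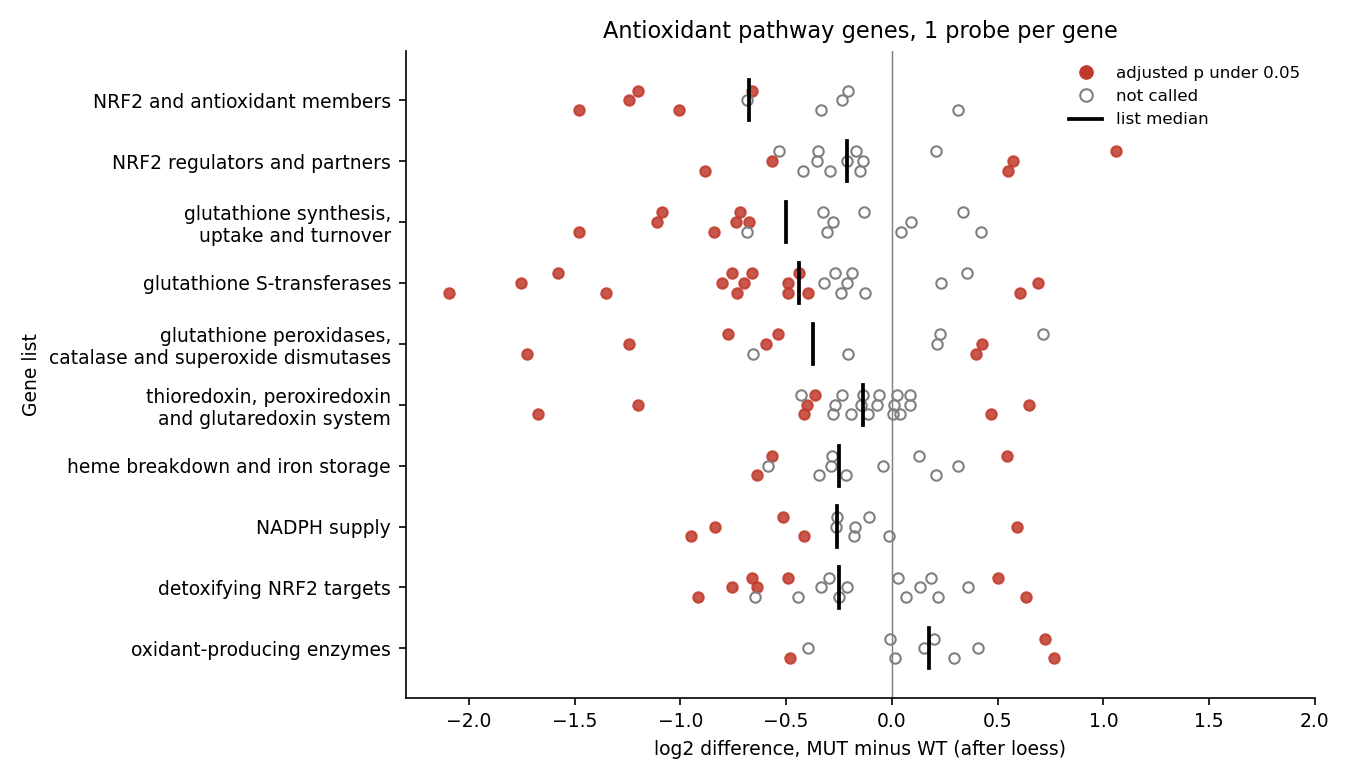
Log2 difference of MUT minus WT after loess (horizontal axis) for each tested gene of the 10 genes and of 9 pathway lists, 1 probe per gene, with filled points for an adjusted p under 0.05 and a black bar at the list median. Medians lie between -0.67 for the 10 genes and 0.18 for oxidant-producing enzymes, and with the spike-in scaling they lie between 0.27 and 1.13.

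Over all 9 lists without the 10 genes, 40 of 132 tested genes (30.3%) were called lower and 15 (11.4%) higher, beside 18.8% and 14% of all genes. The lists were chosen with earlier results of these data known, so these shares are no test of the pathway. Their median difference was -0.23 log2, and 9 of the 40 stayed below WT with the spike-in scaling. Of the 40, 21 were called with each pool left out in turn and of the 15, 2. Without WT pool 3 alone 21 were called lower and 2 higher, and without WT pool 1 alone 22 were called lower.

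The 10 genes fell into patterns by how MUT pool 1 compared with the mean of MUT pools 2 and 3. Nfe2l2, Srxn1, Txnrd1 and Sod2 differed by 0.07, 0.05, 0.04 and 0.04 log2. Gclc, Gclm and Gsta4 were lower in MUT pool 1, by -0.87, -0.83 and -0.36. Nqo1, Hmox1 and Gpx3 were higher there, by 0.68, 0.49 and 0.42. These groupings describe 3 pools and were made after the values were seen.

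**Figure D4:**
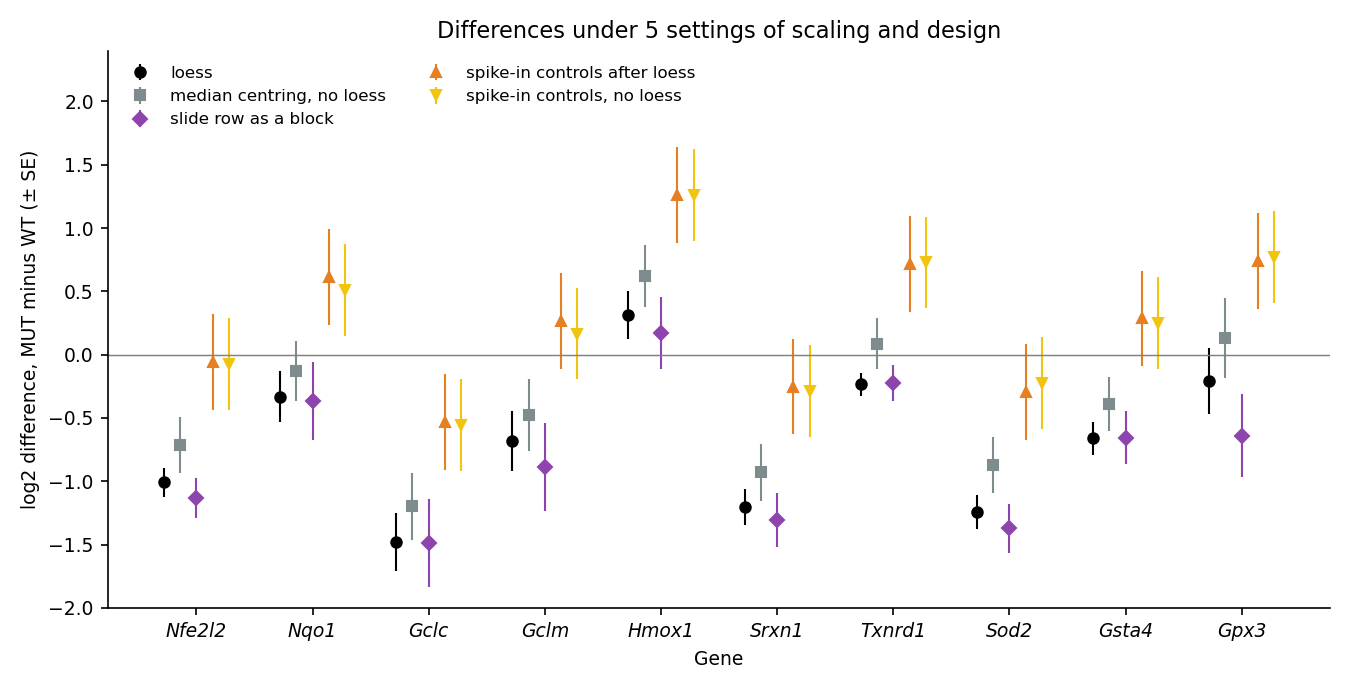
Log2 difference of MUT minus WT with its SE (vertical axis) for the 10 genes under 5 ways of scaling or fitting, each with its own marker. Nfe2l2, Gclc, Srxn1 and Sod2 lie below 0 under all 5, but none of them was called under either spike-in scaling. Gclm, Gsta4 and Nqo1 lie above 0 under both spike-in scalings, Txnrd1 and Gpx3 also with median centring, and Hmox1 lies above 0 throughout.

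Across 20 alternative settings Nfe2l2, Srxn1 and Sod2 were called lower in 18 and Gclc in 17, Gsta4 in 15, Gclm in 4, Nqo1 in 2, and Txnrd1 and Gpx3 in none. Hmox1 was called, as higher, in 2. Only Hmox1 had more than 1 probe, so for the remaining genes the setting on other probes used the probe of the main fit and is no separate check. With each pool left out in turn Nfe2l2, Gclc, Srxn1 and Sod2 stayed called in all 6 fits. Median centring left 4 of the 11 probes called lower, beside 4.73% of all probes. On the slide, row 1 held all MUT pools with WT pool 1, and row 2 the other WT pools. With the row as a block Nfe2l2, Srxn1 and Sod2 stayed called, at -1.13, -1.31 and -1.37 log2 (adjusted p = 0.0158, 0.0204 and 0.0158), beside 5.18% of all probes called lower and 2.38% higher. Row 2 held no MUT pool, so this fit sets the mean of the MUT pools against WT pool 1 alone, and its calls rest on that 1 WT array. That array set WT pool 1 against itself. The ratios behind these differences were -1.01 to -1.31 in MUT pools and 0.08 to 0.16 in WT pool 1, which is the same comparison and no second check.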

How the data were processed

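Gene expression was measured on 6 two-colour Agilent mouse arrays, 3 with MUT pools and 3 with WT pools in Cy5, all on 1 slide in 1 scan. The deposited files hold spot intensity (median signal and local background, and processed signals) for which the submitters' processing notes name Agilent Feature Extraction 10.7.3.1. The deposited value table holds log10 ratios of Cy5 to Cy3, which differ from the log10 ratios in the scanner files by at most 0.00499. Every array had a median of 0 in that table, and scale, centring and direction follow the scanner files.

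From the deposited intensities, log2 ratios were computed with normexp background correction (offset 50) and loess within arrays, with control spots at weight 0. Spots with a non-uniformity or population outlier mark were dropped, and spots of a probe were averaged. No spot was saturated. Such ratios understate large changes of dim genes. A probe was tested if its Cy5 signal was well above background on every array of a group, which 29002 of 55681 were. MUT was compared with WT by limma lmFit and eBayes with no covariate and Benjamini-Hochberg adjustment over these probes. The number of arrays limits the precision. Computation used R 4.3.3, limma 3.58.1, data.table version 1.17.8 and Python 3.11.15 with pandas 2.3.3 and matplotlib 3.10.9, and the fit was tested on simulated data.

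Probes were named through RefSeq accessions in a GRCm38.p6 table. The file headers name another build, so only the promoter windows, read from RefSeq GRCm38.p6, carry coordinates. A gene is given by its brightest tested probe. Signals of gene lists are sums of quantile-normalized Cy5 intensities. The spike-in level of an array is the median, over 10 control probes, of each probe's deviation from its mean over the 6 arrays.

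The 10 genes and all gene lists were chosen with earlier results of these data known. The text names the 10 genes at every probe, Bdkrb2, and 10 genes named for their roles (Keap1, Bach1, Gss, Gsr, Slc7a11, Cat, Sod1, Txn1, G6pdx and Nox4). In each list it also names up to 4 further called genes with the largest difference, pools that do not overlap and signal above background in both groups. It names the 3 genes closest to Nfe2l2 over the arrays. Prdx1 and Hmox2 are named beyond this rule, as partners in pairs chosen after the values were seen. Not on the array under these names were Gsta1, Nnt, Cyp2a5, Duox2 and Duoxa1, and, among others, Hpgds, Gpx5, Nox1, Nox3, Duox1 and Duoxa2 did not pass the filter on dim probes.

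The pool numbers were not taken as pairs: deviations of same-numbered MUT and WT pools from their group means correlated at 0.13, 0.08 and 0.20 over genes. The alternatives covered background correction, scaling, the filter on dim probes, the value table, Cy5 without Cy3, blocks for pool number or slide row, moderation, array weights, other probes and leaving out each pool. Some genes of these lists are not reported here by name.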

Additional observations from a re-analysis of the deposited data

How the results depend on the processing

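Directions of the 10 genes turned in 13 cases. With median centring Txnrd1 was 0.086 and Gpx3 0.13 log2 above WT. Set to the spike-in probes after loess, Nqo1 was 0.62, Gclm 0.26, Txnrd1 0.71, Gsta4 0.29 and Gpx3 0.74 above WT. Set to them without loess, a setting added after the data were seen, they were 0.51, 0.17, 0.73, 0.25 and 0.77 above WT. With each pool left out the Gpx3 difference ranged from -0.51 without WT pool 2 to 0.0062 without WT pool 1.

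Over all probes, 7584 were called, 4234 lower and 3350 higher. Median centring moved the median of all probes by 0.23 log2, gave 1372 probes lower, and left 26 called genes in the pathway lists, 8 lower. The spike-in scaling after loess gave 19150 called probes, 212 lower and 18938 higher, with 2 of the 11 probes of the 10 genes called, 0 lower and 2 higher, and 2 list genes lower and 55 higher. Without loess it moved the median by 0.87 and gave 17060 called probes, 265 lower and 16795 higher, again 2 of the 11 probes, 0 lower and 2 higher, and 3 list genes lower and 59 higher. The slide row as a block gave 2193 called probes, 1502 lower and 691 higher, 3 of the 11 probes, 3 lower, and 17 list genes, 17 lower and 0 higher. The share of called probes that were higher was 44.2% after loess, 77.3% with median centring, 98.9% and 98.4% with the spike-in scalings and 31.5% with the slide row. The cause of these shifts was not tested.

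With each pool left out, between 3830 and 9531 probes were called, 2350 to 5168 lower and 1480 to 4363 higher. Of the 11 probes, 4 to 7 were called, all lower and 0 higher. List genes called were 23 to 66, 21 to 51 lower and 2 to 15 higher. The fewest came without WT pool 3, and without WT pool 1 the counts were 4891 probes, 2755 lower and 2136 higher, and 33 list genes, 22 lower. The pool number as replicate block gave 7248 called probes, 4114 lower and 3134 higher, the same 5 of 11 probes, and 52 list genes, 37 lower and 15 higher. It changed no call among the 10 genes, and every pool correlated best with its own number, as a hint from the data. The background correction moved dim genes: the Nqo1 difference of -0.33 was -0.42 with an offset of 10 and -0.52 with processed signals, and that of Gclm, -0.68, was -0.81 and -0.87, none of these called. There were 3 pools a group and no dye swap, and the 6 arrays share 1 Cy3 RNA.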
